A study of Mus musculus with 18 samples.

Results

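The clustered replication-dependent histone genes were described in the H3K4me3 and H3K27ac peak lists of mouse erythroblasts and immature megakaryocytes. As members, all GENCODE vM21 genes of protein-coding type were taken whose symbol starts with Hist1h, Hist2h, Hist3h or Hist4h, and the rule used no measured value. It gave 67 of 21938 protein-coding genes, of which 6 encode the linker histone H1, 18 H2A, 18 H2B, 12 H3 and 13 H4.

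Most histone protein is made during S phase, when new DNA has to be packed, from many copies of short genes without introns. Their mRNAs end in a stem-loop in place of a poly(A) tail. The stem-loop is bound by SLBP, and the factor NPAT activates the genes in the histone locus body, a nuclear body that forms on the clusters. H3K4me3 marks active and poised promoters, and H3K27ac marks active promoters and enhancers. Erythroblasts divide several times before they condense and expel the nucleus, whereas megakaryocytes copy their DNA repeatedly without dividing.

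The cells came from the bone marrow of adult C57BL6 mice, for which the labels give no mutation and no treatment, with chromatin immunoprecipitation and sequencing (ChIP-seq) for each mark in 2 libraries of each cell type. Erythroblasts (ERY) were sorted as Ter119+, CD44+ and FSCLow, and immature megakaryocytes (iMK) as Ter119-, Sca1-, CD41+, CD61+ and cKit-, both after exclusion of CD4, CD8, IL7Ra, CD11b, Ly6g and CD45R. The values are the percent of a window's bases that the peaks of a library covered, and 0% says only that no peak was listed there. Whether each library had its own animals is not in the labels. In the methods the replicates are called biological, either from separate groups of mice or from 1 group sorted into aliquots that were handled apart, and which of these holds here was not given. So p-values measure the spread between libraries, which may be technical.

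The lists held 6275 to 13222 peaks for H3K4me3 and 21768 to 25750 for H3K27ac, and their read depth is not used here. The 2 iMK H3K4me3 lists stood apart from each other, covering 11.3 and 33.8 Mb. ERY H3K27ac peaks had a mean width of 2992 and 2980 bp, against 1873 and 2147 bp in the iMK lists, so ERY peaks were wider over the whole lists. All 8 ERY marker genes had higher H3K27ac coverage in ERY. The iMK markers were mixed, and for H3K27ac more of them went with ERY than with iMK. Of 10 iMK markers 2 and 3 had an H3K27ac peak at the promoter in the iMK lists, with none at Pf4, Gp6 or Itga2b, and 4 and 4 had one in the ERY lists. For H3K27ac, Gp9, Gp1ba and Itga2b were called in both ERY lists and neither iMK list. Fli1 and Itgb3 were called in both iMK lists and neither ERY list, for both marks. H3K4me3 peaks lay at 2 and 4 iMK marker promoters in the iMK lists and at 0 and 0 in the ERY lists. Of 8 iMK markers tested for H3K27ac at the locus by limma (described below) 4 were higher in ERY and 2 in iMK. In the iMK lists 8 and 9 of 10 myeloid markers had an H3K27ac promoter peak, and in the ERY lists 0 and 0. The part of other cells in the iMK values below was not tested, and iMK means the libraries with that label.

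The members form 7 clusters, joined where neighbours lay under 100 kb apart. On mm10 the largest holds 29 members at chr13:23531050-23764406. Another 18 lie at chr13:21715763-21837530, 10 at chr3:96219865-96270132, 5 at chr13:22035164-22043676, and 2 at chr11:58948920-58956830. The testis-specific pair Hist1h2ba and Hist1h2aa lies at chr13:23933773-23934851, and Hist4h4 stands alone at chr6:136801553-136804415. Hfe, the hemochromatosis gene, was the only other protein-coding gene inside a cluster. Together the clusters span 425.8 kb.

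The members share sequence features that set them apart from other genes. The stem-loop was searched on the coding strand within 200 bp after the stop codon, as an arm GGNNCT, a loop TTTN and an arm AGNNCC without gaps. It was found after 63 of 67 members (94.0%) and after 5 of 21685 other protein-coding genes (0.0231%). One of those 5 was H2afx, a histone variant gene. The match began at a median of 31 bp after the stop codon, with a range of 22 to 59 bp. It took 6 forms, given as DNA with the arms of the stem in capitals and the loop in lower case, because this hairpin is what distinguishes these genes as a class. The most common form, in 41 members, was that of H1, H2A, H2B and H3 genes, and the GGCCCT arm was found in H4 genes.
Form in 41 members: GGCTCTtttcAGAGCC
Form in 9 members: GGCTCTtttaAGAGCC
Form in 8 members, all H4: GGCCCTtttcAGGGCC
Form in 2 members, both H4: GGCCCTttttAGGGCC
Form in 2 members, both H4: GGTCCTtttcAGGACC
Form in 1 member, Hist2h2ac: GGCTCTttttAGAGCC

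Promoters from RefSeq (GRCm38.p6, 250 bases before to 50 after the start) were matched to 62 of 67 members, 61 of them with a start within 100 bp of the GENCODE start. Searched on both strands, the CCAAT box was in every matched promoter of the H1, H2A, H2B and H3 families and in 3 of 12 H4 promoters, against 37.4% of all 32851 RefSeq promoters. GGTCCG, the core of the H4 subtype element, was in 11 of 12 H4 promoters and 8.25% of all promoters. AAACACA, the H1 box, was in 5 of 6 H1 promoters and 7.18% of all. The octamer ATTTGCAT, known from H2B genes, was in 6 of 16 H2B and 7 of 18 H2A promoters and 1.74% of all, and TATAAA in 35 of 62 members and 13.6% of all. Some H2A and H2B promoters overlap, such as those of Hist1h2ah and Hist1h2bk, so the same match can count for both families. A match is a description of letters and not of binding.

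The following 5 promoters are shown because the results below turn on them, with every match to these 5 motifs in capitals. Hist1h2ad (chr13:23574131-23574430, plus strand) is an H2A promoter shared head to head with Hist1h2bf, and Hist1h4f (chr13:23551619-23551918, minus strand) an H4 promoter. Hist1h1d (chr13:23554782-23555081, plus strand) is an H1 promoter whose annotated starts disagree. Hist2h3b (chr3:96268404-96268703, plus strand) had no peak in any list, and Hist1h2ba (chr13:23934107-23934406, minus strand) is that of a testis H2B.
Hist1h2ad: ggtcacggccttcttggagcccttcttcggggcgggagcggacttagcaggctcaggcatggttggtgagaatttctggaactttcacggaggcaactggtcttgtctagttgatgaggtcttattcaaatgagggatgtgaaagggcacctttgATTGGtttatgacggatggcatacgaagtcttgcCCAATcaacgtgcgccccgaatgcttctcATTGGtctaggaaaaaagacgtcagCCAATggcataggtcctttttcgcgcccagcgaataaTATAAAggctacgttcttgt
Hist1h4f: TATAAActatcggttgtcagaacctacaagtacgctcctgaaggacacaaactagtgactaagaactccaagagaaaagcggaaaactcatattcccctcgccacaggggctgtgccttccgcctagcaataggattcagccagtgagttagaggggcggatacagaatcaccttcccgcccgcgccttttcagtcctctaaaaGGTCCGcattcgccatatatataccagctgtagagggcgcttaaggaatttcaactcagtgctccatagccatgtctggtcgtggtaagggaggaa
Hist1h1d: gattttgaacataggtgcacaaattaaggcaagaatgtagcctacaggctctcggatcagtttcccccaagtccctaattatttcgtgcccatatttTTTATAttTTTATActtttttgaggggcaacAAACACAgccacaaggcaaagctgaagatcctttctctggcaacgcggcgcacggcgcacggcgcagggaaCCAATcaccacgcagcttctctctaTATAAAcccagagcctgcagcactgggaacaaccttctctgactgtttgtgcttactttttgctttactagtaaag
Hist2h3b: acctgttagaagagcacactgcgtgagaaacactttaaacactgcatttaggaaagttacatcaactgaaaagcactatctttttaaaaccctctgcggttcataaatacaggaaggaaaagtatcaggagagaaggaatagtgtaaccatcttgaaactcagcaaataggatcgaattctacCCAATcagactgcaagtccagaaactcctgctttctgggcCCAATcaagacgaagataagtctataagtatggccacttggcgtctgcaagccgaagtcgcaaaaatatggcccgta
Hist1h2ba: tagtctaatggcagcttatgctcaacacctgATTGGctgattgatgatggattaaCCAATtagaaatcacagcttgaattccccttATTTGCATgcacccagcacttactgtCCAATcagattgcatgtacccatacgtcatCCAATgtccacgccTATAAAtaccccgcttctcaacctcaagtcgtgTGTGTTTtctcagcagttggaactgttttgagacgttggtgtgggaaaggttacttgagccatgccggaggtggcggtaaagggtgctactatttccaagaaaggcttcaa

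Nearly all histone gene promoters carried H3K27ac peaks in both cell types. A promoter, any annotated start with 1 kb on each side, was called where any peak overlapped it by 1 bp or more. ERY H3K27ac lists called 64 and 64 of 67 members, against 41.7% and 39.4% of all genes. The iMK lists called 60 and 63, against 47.6% and 49% of all genes. All 4 lists called 59 members (88.1%), against 36% of all genes. For 3 members (Hist1h1d, Hist1h2ba and Hist1h2aa), against 6.11% of all genes, replicates of a cell type disagreed. Coverage was also more complete than at most genes: ERY peaks covered the whole window of 61 members in each list, and iMK peaks that of 41 and 48. Of all genes called, 12.9% and 11.3% were covered whole in ERY and 4.88% and 6.87% in iMK. A gene with several annotated starts counts as covered whole only if the windows of all of them are. The number of starts was not matched between members and other genes, so part of this gap may come from annotation.

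H3K4me3 calls depended on the library. ERY replicates 1 and 2 called 62 and 52 members, against 38.6% and 28.8% of all genes. iMK replicates 1 and 2 called 44 and 64, against 35.5% and 52.8% of all genes. The median member promoter was 100% and 55.3% covered in the ERY lists and 39.8% and 100% in the iMK lists, so the ranges of the cell types overlapped. All 4 lists called 40 members (59.7%), against 24.6% of all genes. Another 24 members, against 23.8% of all genes, were called in some lists with replicates of a cell type disagreeing, and 12 of them were missed by iMK replicate 1 alone (17.9% of members, against 3.66% of all genes). No member was called in both ERY lists and neither iMK list, against 0.378% of all genes.

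**Figure D1:**
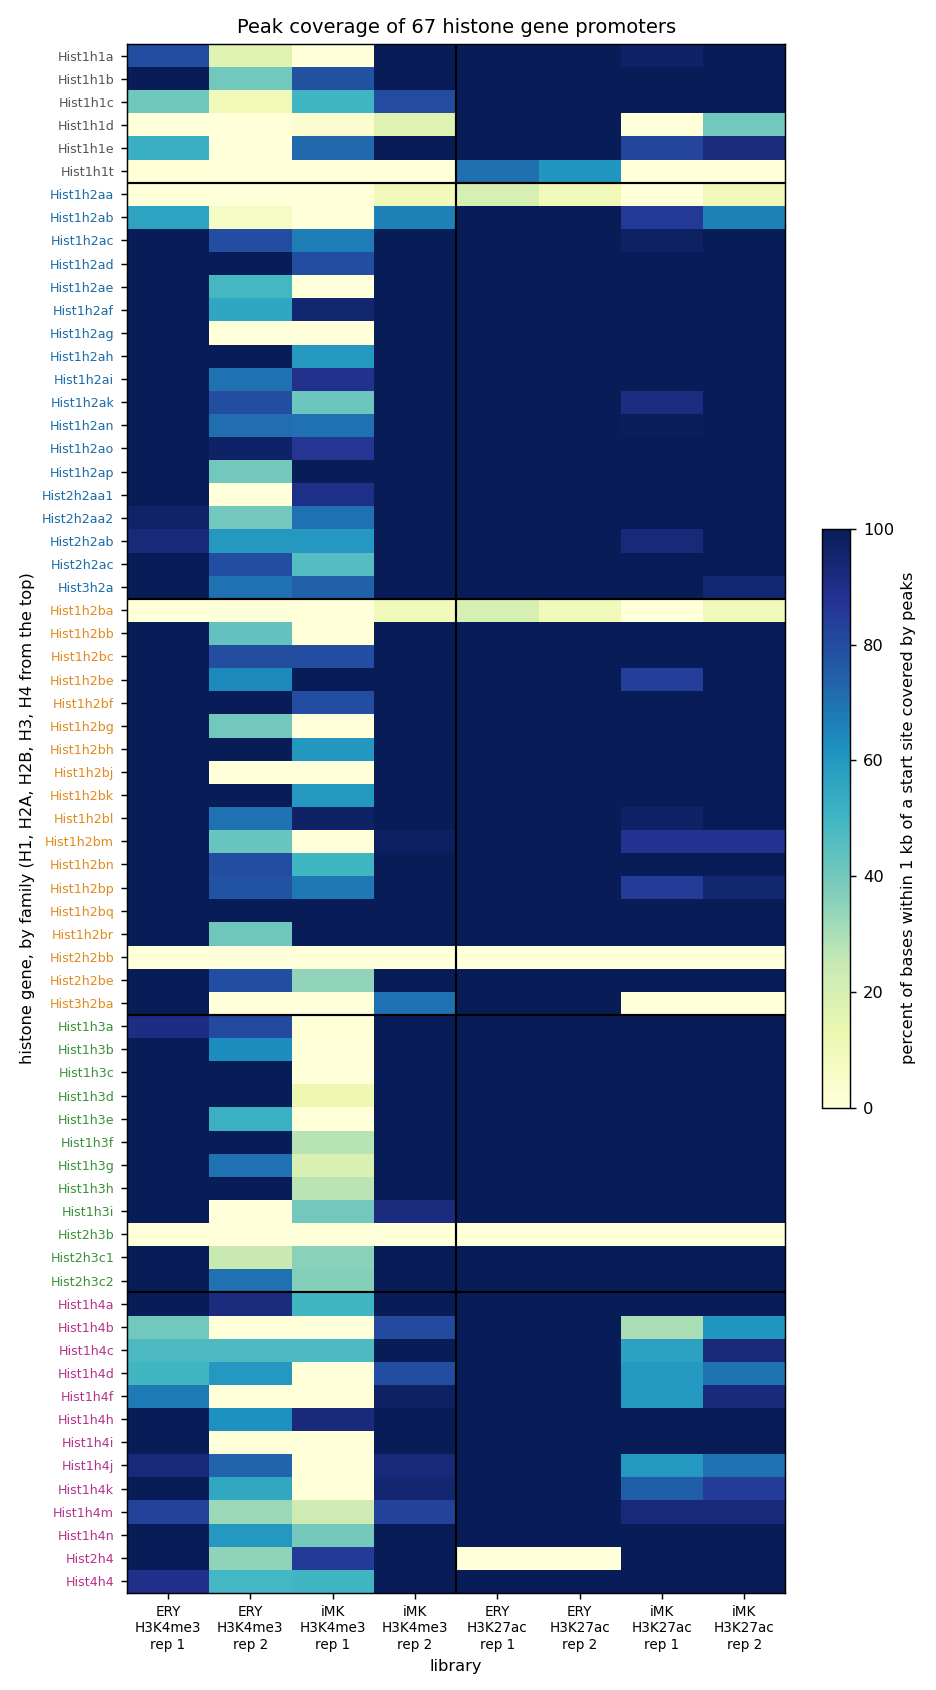
Percent of bases within 1 kb of an annotated start site covered by peaks, for 67 histone genes in rows by family and 8 libraries in columns, H3K4me3 left of the line and H3K27ac right. The H3K27ac columns are dark for all but a few rows, while ERY replicate 2 and iMK replicate 1 are paler for H3K4me3, and Hist2h3b and Hist2h2bb are blank throughout.

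By family, H1 genes, whose proteins bind linker DNA, had the lowest median H3K4me3 coverage in 3 of 4 lists, iMK replicate 1 being the exception. The median H1 promoter was 46.3% and 5.20% covered in ERY and 26.7% and 90.2% in iMK. The H1 set includes the testis gene Hist1h1t, and Hist1h1d, whose GENCODE start lies far from its RefSeq start. Around the RefSeq start Hist1h1d had 51.6% and 41.6% in ERY and 91.6% and 71.6% in iMK. The H1 medians thus depend on the start taken. Core histone families had medians from 93.2% to 100% in ERY replicate 1 and from 99.8% to 100% in iMK replicate 2. In the weaker iMK replicate 1 they ranged from 15.4% for H3 and 22.7% for H4, both below H1, to 68.7% for H2A. The same order was not repeated in ERY replicate 2, where H4 had the lowest core median, 49.3%, and H3 the highest, 70.0%. H3K27ac medians were 100% for every family in ERY and at least 89.4% in iMK.

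Head-to-head gene pairs, with starts under 1000 bp apart, were 13 in number, 12 of an H2A with an H2B gene and 1 of an H2B with an H3 gene. Their starts were 176 to 660 bp apart, with a median of 268 bp, so that one promoter window serves both genes. All 4 H3K4me3 lists called 20 of 26 paired members and 20 of 41 others, against 24.6% of all genes. For H3K27ac the counts were 24 of 26 and 35 of 41, against 36% of all genes. The genes of a pair largely share a window, so the 26 paired members are not separate observations. Hist1h2bf and Hist1h2ad, whose shared promoter is printed above, lie 185 bp apart. They had H3K4me3 on 100% and 100% of the window in ERY and on 80.0% and 100% in iMK, and were among the 4 members with the highest mean. Hist1h2bq, an H2B gene, was the only member covered whole by both marks in all 8 lists.

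Sequence copies limit what can be assigned to single members. Of the 31-base words in the 2 kb around the start, a median of 24.6% occurred more than once in the genome. For Hist1h2ao, Hist1h2ap, Hist1h2bq and Hist1h2br the share was 100%, and for 10 members it was over 50%, Hist2h3c1 and Hist2h3c2 among them. A read made only of repeated sequence cannot be assigned to a single copy, and the study's general ChIP-seq methods kept reads that map to several places. The listed peaks still differed between such members. In ERY replicate 2, H3K4me3 covered 100% around the RefSeq start of Hist1h2bq and 40.0% around that of Hist1h2br.

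Outside the promoters, the 2 cell types differed in H3K27ac. In ERY, H3K27ac ran across the ground between histone genes as wide domains, and in iMK it was mostly restricted to the promoters. Peaks covered 57.9% and 55.7% of cluster bases in ERY (mean 56.8% ± 1.52, SD, n = 2) and 25.5% and 30.1% in iMK (27.8% ± 3.26, SD, n = 2). The ERY lists were both above the iMK lists. A peak list from sorted cells does not tell more cells with the mark from more of the mark per cell, and the share of cells in S phase was not measured. With 2 libraries a group, 0.333 is the smallest two-sided p of an exact permutation test, and no such test was made.

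The difference in coverage was larger away from the start sites, but near them coverage was close to complete and left little room for one. Within 1 kb of a member's start, a total of 92.6 kb, H3K27ac covered 93.6% and 93.4% in ERY and 83.5% and 87.5% in iMK, so both ERY lists were above both iMK lists there too. Across the other 333.2 kb it covered 48.0% and 45.3% in ERY and 9.404% and 14.2% in iMK. Over the whole genome ERY lists covered 2.83% and 2.38% and iMK lists 1.58% and 1.95%, a smaller gap than between the genes of the clusters. As a ratio of cluster to genome coverage, H3K27ac reached 20.5 and 23.4 in ERY and 16.2 and 15.4 in iMK.

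**Figure D2:**
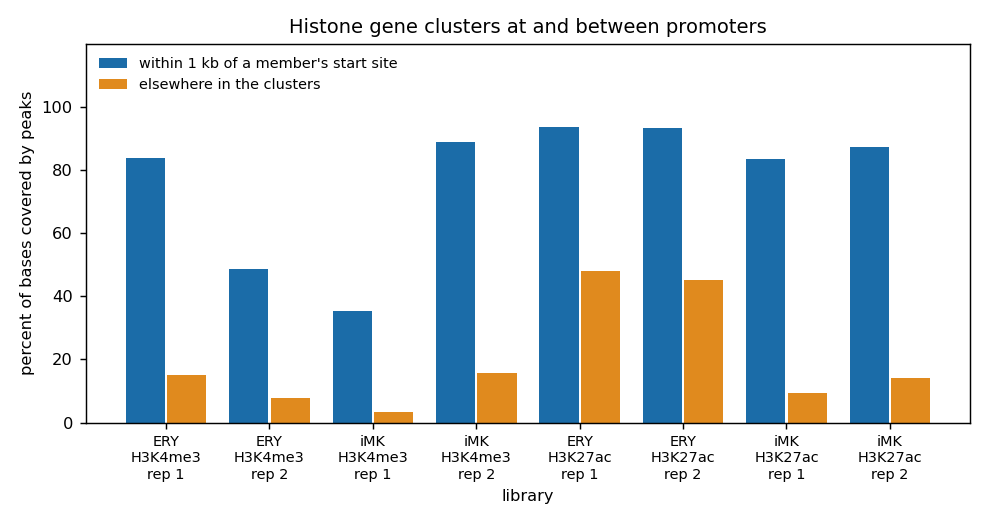
Percent of histone cluster bases covered by peaks in each of the 8 libraries, within 1 kb of a member's start site (blue) and elsewhere in the clusters (orange). For H3K27ac the orange bars are at 48.0% and 45.3% in ERY and at 9.404% and 14.2% in iMK, while the blue bars are above 80% in all 4.

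The widest domains lay over the 29-member cluster. In ERY replicate 1 a single H3K27ac peak of 60000 bp (chr13:23528601-23588600) overlapped the gene bodies of 15 members, and only 1 peak of that list was wider. In ERY replicate 2 the widest was 32200 bp (chr13:23526601-23558800) over 7 members, with 26 wider peaks in the list. The widest iMK H3K27ac peaks were 7000 and 9800 bp over 3 members each, with 139 and 104 wider peaks in their lists. Member peaks stood higher within the ERY lists than within the iMK lists, although their folds were alike. Of the peaks touching a member's promoter, 17 of 18 and 18 of 19 were in the top 10% of the list by p-value in ERY, and 12 of 32 and 18 of 33 in iMK. Their median fold over control was 10.17 and 10.23 in ERY and 11.04 and 10.87 in iMK, so it was not higher in ERY. These folds were at percentiles 98.3 and 99.3 of the ERY lists, whose medians over all peaks were 3.06 and 2.77, and at 79.0 and 82.7 of the iMK lists, with medians of 5.79 and 5.65.

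H3K4me3 coverage, before any scaling to the whole list, did not differ in the same way. Cluster coverage was 30.1% and 16.7% in ERY (23.4% ± 9.46, SD, n = 2) and 10.3% and 31.7% in iMK (20.97% ± 15.1, SD, n = 2), so that the groups overlapped. The widest H3K4me3 peaks over members were 8600 and 5400 bp in ERY and 3000 and 9800 bp in iMK. In relation to the genome, clusters were covered 51.3 and 50.4 times as densely in ERY and 24.7 and 25.5 times in iMK. By this ratio both ERY lists were above both iMK lists for H3K4me3, as they were for H3K27ac. The top 10% of the lists by p-value held 11 of 32 and 1 of 40 member promoter peaks in ERY, and 0 of 24 and 8 of 33 in iMK.

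**Figure D3:**
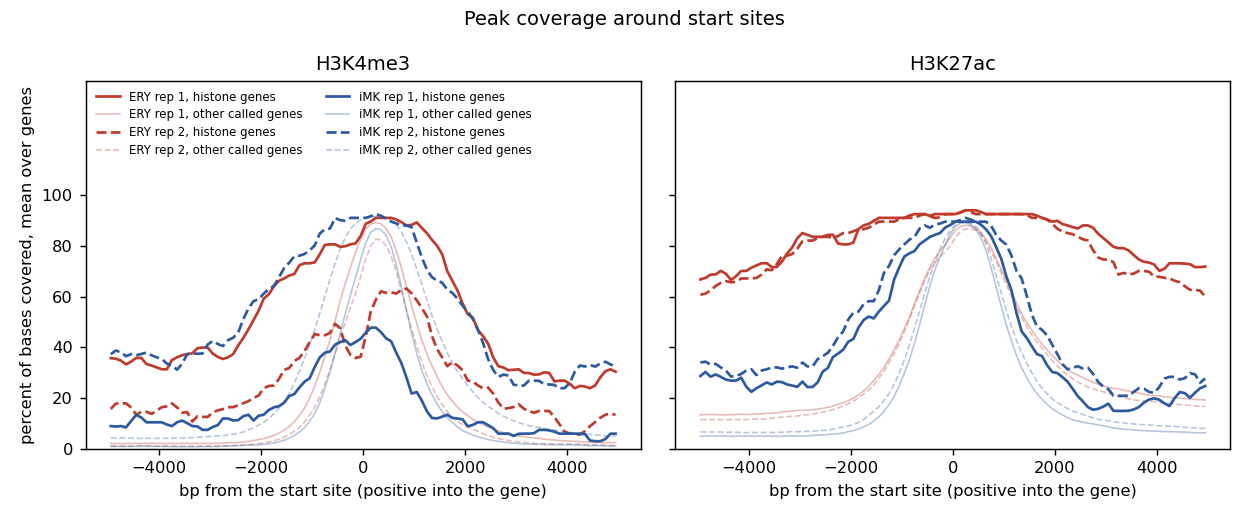
Percent of bases covered by peaks in 100 bp steps from 5 kb before to 5 kb after the start site, averaged over the 67 histone genes (strong lines) and over other genes called in the same library (pale lines), ERY in red, iMK in blue. At 2050 bp before the start, ERY H3K27ac covered 80.6% and 85.1% of histone genes and iMK 42.2% and 50.9%, and the pale lines lay between 6.75% and 18.98%.

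Around the average member start, ERY H3K27ac stayed high over several kilobases. At 3050 bp before the start it covered 83.0% and 78.9% of members, and iMK peaks covered 24.4% and 32.0%. At the summit the lists were alike, with 94.0% and 94.0% in ERY and 89.6% and 91.0% in iMK. Neighbouring histone genes lie within these distances, so part of the flank is the promoter of another member.

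The comparison of cell types was tested on the locus, which is the gene body extended by 10 kb at either end, with limma over all genes covered in at least 1 of the 4 lists and Benjamini-Hochberg adjustment at 0.05. H3K27ac coverage was higher in ERY at 61 of 67 members, against 22% of 14467 genes tested, and higher in iMK at 0 members, against 17.2%. At an unadjusted p under 0.05 the counts were 61 and 0. Both ERY lists were above both iMK lists at 62 member loci, against 27.1% of all genes, and below them at 1, that of Hist2h2bb, against 20.7%. The median difference, ERY minus iMK, was 35.4 percentage points for members and 0.599 for all genes. Among genes with a shared H3K27ac promoter, 58 of 59 members were higher in ERY, against 27.9% of 7897 genes, with medians of 36.0 and 2.56 points. Loci of neighbours overlap, so these members are not separate observations. Locus length grows with the gene body and was not matched between members and other genes. The same peak is a larger percent of a short locus than of a long one. When the 4 lists were brought to the same distribution by quantile normalization, 20 members were higher in ERY and 1 in iMK and the median difference was 5.40 points, while leaving out 1 list at a time gave 10 to 32 members.

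**Figure D4:**
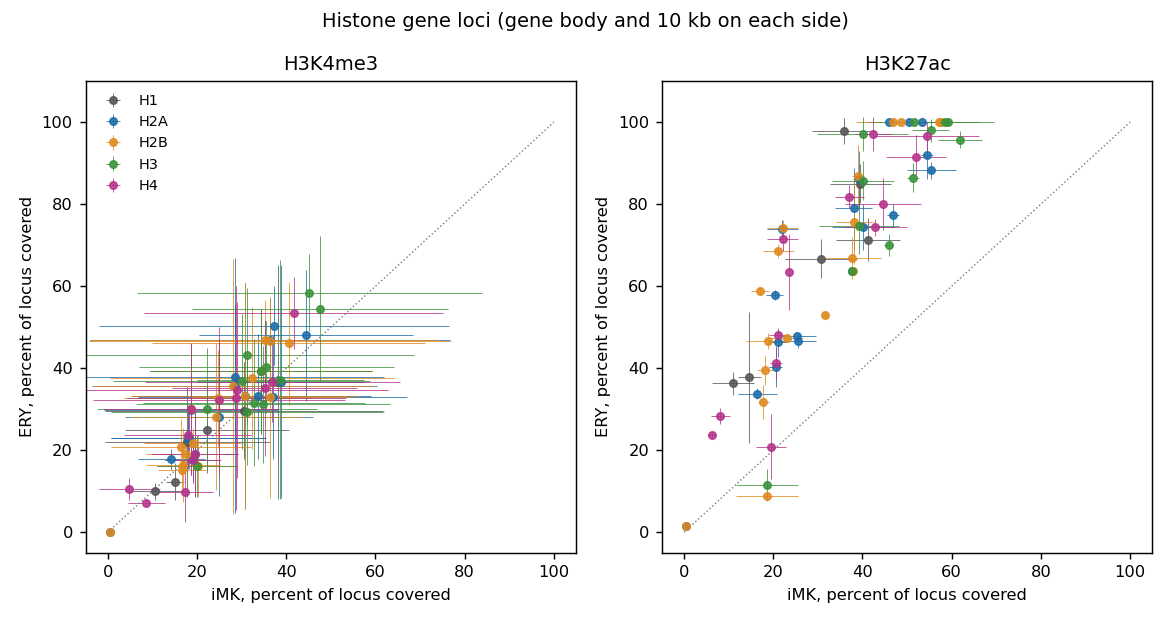
Percent of each histone gene locus covered by peaks, mean of 2 iMK libraries (horizontal) against mean of 2 ERY libraries (vertical), with SD bars and families by colour; the dotted line marks equal coverage. All H3K27ac points but those of Hist2h3b and Hist2h2bb lie above the line, while H3K4me3 points lie along it with wide bars.

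Among H1 genes, 5 of 6 loci were higher in ERY for H3K27ac. Hist1h1d had the largest difference of any member. Its locus was covered to 100% and 95.6% in ERY and 30.7% and 40.9% in iMK, without overlap, a difference of 62.0 points (SE 4.79, limma adjusted p = 0.00816). Hist1h1b was covered to 81.7% and 88.3% in ERY and 34.7% and 44.4% in iMK (45.5 points, SE 5.05, limma adjusted p = 0.0132). Hist1h1c, whose mRNA is also made with a poly(A) tail in differentiated cells, was covered to 75.0% and 67.6% in ERY and 36.2% and 46.3% in iMK (30.01 points, SE 5.42, limma adjusted p = 0.0317). Hist1h1e did not pass, with 49.1% and 26.4% in ERY and 12.8% and 16.4% in iMK (23.2 points, SE 9.27, limma adjusted p = 0.143).

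The testis H1 gene Hist1h1t had H3K27ac at its promoter in ERY lists only. The window was covered to 70.7% and 60.7% in ERY and 0% and 0% in iMK, and H3K4me3 covered 0.700% of it in ERY replicate 1 and none in the other 3 lists. Across the locus, H3K27ac covered 38.2% and 34.4% in ERY and 7.59% and 14.3% in iMK (25.3 points, SE 3.45, limma adjusted p = 0.0188). The locus also takes in Hist1h4c, an H4 gene that starts on the opposite strand. Hist1h1t was 1 of 2 members in the ERY-only H3K27ac class, against 2.17% of all genes.

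Hist1h1d showed how the annotated start decides a call. Its GENCODE start at 23553262 lies 1770 bp before the RefSeq start at 23555032, and no other matched member differed by more than 100 bp. At the GENCODE start H3K4me3 covered 0% and 0% in ERY and 3.10% and 16.9% in iMK, which made Hist1h1d the only iMK-only member for H3K4me3, against 4.89% of all genes. Around the RefSeq start, a choice made after these values were seen, H3K4me3 covered 51.6% and 41.6% in ERY and 91.6% and 71.6% in iMK. H3K27ac covered 100% and 100% there in ERY and 61.6% and 91.6% in iMK. With RefSeq starts no member was iMK-only for either mark except Hist2h4, which had no RefSeq match. The RefSeq start nearest the GENCODE start was taken for each member, so close agreement is partly built in. For Hist1h2be these starts agreed, at 23621124 (GENCODE) and 23621094 (RefSeq), but its stem-loop lies far from them, at chr13:23585531-23585546.

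In the H2A and H2B families, whose proteins form the dimers of the nucleosome, 17 of 18 and 16 of 18 loci were higher in ERY for H3K27ac, with median differences of 33.5 and 33.4 points. Hist1h2ae was covered to 100% and 100% in ERY and 42.5% and 49.4% in iMK (54.1 points, SE 3.22, limma adjusted p = 0.00651). Its head-to-head partner Hist1h2bg was covered to 100% and 100% in ERY and 44.7% and 52.5% in iMK. Hist1h2bf and Hist1h2ad were covered whole in ERY, and to 41.0% and 52.8%, and 44.5% and 56.2%, in iMK. In the 18-member cluster, Hist1h2ak had 75.5% and 72.6% in ERY and 19.6% and 24.5% in iMK (52.0 points, SE 3.16, limma adjusted p = 0.00653), and its partner Hist1h2bn had 75.6% and 72.6% in ERY and 19.6% and 24.5% in iMK.

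Hist1h2bc, an H2B gene whose mRNA is likewise polyadenylated in differentiated cells, was called by all 8 lists. Its locus had H3K27ac on 48.1% and 45.3% in ERY and 15.3% and 22.3% in iMK (27.9 points, SE 3.57, limma adjusted p = 0.0169). Away from chromosomes 13 and 3, Hist3h2a and Hist3h2ba lie on chromosome 11. Hist3h2ba was the other ERY-only H3K27ac member, its promoter covered to 100% and 100% in ERY and 0% and 0% in iMK. H3K4me3 covered 100% and 0% of that window in ERY and 0% and 70.0% in iMK, so its replicates disagreed. Its H3K27ac locus values were 59.3% and 58.3% in ERY and 15.6% and 18.5% in iMK (41.7 points, SE 2.44, limma adjusted p = 0.00650). Hist3h2a had 56.9% and 58.7% in ERY and 18.97% and 21.7% in iMK (37.5 points, SE 2.49, limma adjusted p = 0.00699). Hist3h2a, Hist3h2ba and Hist1h4j were the 3 members that passed under every one of 10 alternative settings.

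The testis pair Hist1h2ba and Hist1h2aa, which forms a cluster of its own, was nearly unmarked. All that was listed within 10 kb was 1 peak in each of 4 lists, at chr13:23933801-23934000 in 3 of them and 200 bp longer in ERY replicate 1 for H3K27ac. In 4 of 8 lists, both ERY and iMK replicate 2 for H3K27ac and iMK replicate 2 for H3K4me3, the promoter window was covered to between 9.995% and 19.99%, and in the other 4 to 0%. Of the 31-base words in that 200 bp stretch, 70.0% occurred more than once in the genome. The printed Hist1h2ba promoter holds CCAAT, the octamer, TATAAA and a match to the H1 box. Of 16 matched H2B promoters, this one included, 16 hold CCAAT, 6 the octamer, 8 TATAAA and 2 the H1 box.

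In the H3 family, whose proteins carry both marks measured here, 11 of 12 loci were higher in ERY for H3K27ac. Hist1h3e led with 100% and 94.2% in ERY and 32.8% and 47.2% in iMK (57.1 points, SE 6.42, limma adjusted p = 0.0135). Hist2h3b was the exception. Neither mark was listed at its promoter in any of 8 lists, a pattern that 42.8% of all genes had and that among members only the neighbouring H2B gene Hist2h2bb shared. Across the 2 loci, H3K27ac lay at 14.4% and 8.79% in ERY and 13.7% and 23.4% in iMK for Hist2h3b (-6.96 points, limma adjusted p = 0.311). For Hist2h2bb it lay at 9.07% and 8.83% in ERY and 13.7% and 23.6% in iMK (-9.69 points, limma adjusted p = 0.154). Both carry the most common stem-loop, and the printed Hist2h3b promoter has CCAAT boxes like those of other H3 genes. The H3 genes Hist2h3c1 and Hist2h3c2 of the same cluster had H3K27ac on 100% of the window in all 4 lists.

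Of the H4 genes, 12 of 13 loci were higher in ERY for H3K27ac. Hist1h4f was covered to 100% and 94.1% in ERY and 39.5% and 45.4% in iMK (54.6 points, SE 3.76, limma adjusted p = 0.00724). Hist1h4k was covered to 73.4% and 69.4% in ERY and 19.7% and 24.6% in iMK (49.3 points, SE 3.33, limma adjusted p = 0.00707). Hist4h4, the only member on chromosome 6, was covered to 70.0% and 56.9% in ERY and 23.6% and 23.6% in iMK (39.8 points, SE 5.67, limma adjusted p = 0.0203). This locus also takes in the histone variant gene H2afj, whose own values are given below. Some H4 promoters were covered only in part by iMK peaks. Of the 14 members whose H3K27ac promoter coverage was higher in both ERY lists than in both iMK lists, against 15.8% of all genes, 7 were H4 genes. Among these H4 genes the lowest in iMK was Hist1h4b, with 100% and 100% in ERY and 29.99% and 60.6% in iMK.

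Hist2h4, an H4 gene of the chromosome 3 cluster, went the other way. H3K27ac covered 0% and 0% of its promoter in ERY and 100% and 100% in iMK, and it was the only iMK-only member for this mark, against 8.56% of all genes. H3K4me3 was listed in all 4 lists, on 100% and 34.5% in ERY and 85.5% and 100% in iMK. Hist2h4, Hist2h3b and Hist2h2bb lie next to each other at the end of the cluster. Across the Hist2h4 locus, which reaches marked neighbours, H3K27ac coverage was 26.4% and 15.3% in ERY and 17.2% and 21.8% in iMK, and the groups overlapped (1.39 points, SE 4.98, limma adjusted p = 0.832).

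For H3K4me3, limma called 0 members and 0% of 13561 genes in either direction, and 0 members had an unadjusted p under 0.05. The median difference of the members was 3.69 points, against -1.66 for all genes, and 41 of 67 were above 0. Single lists moved this median in both directions. It was -5.39 points when ERY replicate 1 was left out and -12.7 for iMK replicate 1, against 13.98 for ERY replicate 2 and 18.06 for iMK replicate 2. After quantile normalization it was 8.41 points, with 58 of 67 members above 0, against 5.40 points and 50 of 67 for H3K27ac. For H3K4me3, 12 members then had an unadjusted p under 0.05, all higher in ERY, and 0 passed after adjustment. With stricter peaks the H3K4me3 median was 9.74 points, with 57 of 65 tested members above 0. The lists of the cell types overlapped at every member locus, with 0 members apart in favour of ERY, against 1.67% of all genes, and 0 in favour of iMK, against 12.6%. At the promoter, no member was higher in both ERY lists than in both iMK lists, against 1.14% of all genes. Hist1h1c, Hist1h1d and Hist1h1e, all of them H1 genes, were higher in both iMK lists, against 11% of all genes. Hist1h1c had 40.4% and 10.4% in ERY and 50.4% and 80.4% in iMK, and H3K27ac on 100% of the window in all 4 lists. At Hist1h1d and Hist1h1e the marks were apart in opposite directions, with H3K27ac higher in both ERY lists, a pattern of 1.23% of all genes.

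Genes that act on histone genes were marked in both cell types, with smaller differences. Of 16 factors for histone gene transcription and mRNA processing, 15 had a shared H3K27ac promoter and 13 a shared H3K4me3 promoter, against 36% and 24.6% of all genes. H3K27ac locus coverage was higher in ERY for 5 of 16 and in iMK for 0, against 22% and 17.2% of all genes tested, with a median difference of 3.15 points. Hinfp, the zinc finger factor that binds the H4 element, led with means of 54.8% in ERY and 4.51% in iMK (50.3 points, SE 2.68, limma adjusted p = 0.00650). Lsm10, a component of the U7 snRNP that cuts histone pre-mRNA, had 45.1% and 24.6% (20.5 points, SE 2.07, limma adjusted p = 0.0114). Npat had 7.68% and 3.49% (limma adjusted p = 0.0859), Casp8ap2, another component of the histone locus body, 8.30% and 6.57% (limma adjusted p = 0.240), and Slbp 23.1% and 19.4% (limma adjusted p = 0.762).

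Replication-independent variants, chaperones and S phase genes were set beside the members. Of 10 tested histone variant genes, 3 were higher in ERY and 2 in iMK for H3K27ac, counts near the 22% and 17.2% of all genes tested. The locus of H2afj overlaps that of the member Hist4h4, so this list is not fully separate from the members. H3K27ac covered 63.9% and 49.3% of the H2afj locus in the ERY lists and 24.7% and 24.7% in the iMK lists. H2afx, which also has the stem-loop, had means of 86.2% in ERY and 40.2% in iMK (46.0 points, SE 4.87, limma adjusted p = 0.0122), and H3f3a, which encodes H3.3, 37.6% and 18.7% (18.9 points, SE 2.003, limma adjusted p = 0.0123). H1f0, the linker histone of resting and differentiated cells, had 0% in ERY and 7.25% in iMK (-7.25 points, SE 1.48, limma adjusted p = 0.0401). Of 10 histone chaperones 2 were higher in ERY, Hira and Chaf1a, and 0 in iMK, so the ERY count was also near that of all genes. Of 15 S phase genes 6 were higher in ERY and 0 in iMK, with a median of 9.52 points. Rrm2, a subunit of ribonucleotide reductase, led with 60.1% and 11.6% (48.5 points, SE 3.25, limma adjusted p = 0.00703). H3K4me3 differences passed for no gene of these lists.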

How the data were processed

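ChIP-seq peak lists of 8 libraries were analysed, and 10 input libraries were not used here. Each library has a peak list of its own. Bowtie 1.0.0, SICER 1.1 and mm10 stand in the submitters' processing notes, and the methods of the study give MACS as the peak caller after Bowtie. Beside the position of each peak, the authors deposited its ratio (fold) of ChIP to control, a p-value and a q-value. Peak edges fell on multiples of 200 bp, as in windowed calling that joins neighbouring windows. Read depth is not in the lists, so no interval that needs it was given. Replicate numbers follow the order of submission and pair nothing.

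Gene models were GENCODE vM21 on GRCm38, the assembly of mm10, with chromosome M left out. Promoters were annotated starts with 1 kb on each side. A promoter was shared when all 4 lists of a mark called it, ERY-only when both ERY lists and no iMK list did, and iMK-only in the opposite case. Percent coverage of loci was compared by limma 3.58.1 in R 4.3.3 (moderated test with a trend, no covariates, 2 against 2 libraries, genes covered in at least 1 list, Benjamini-Hochberg adjustment over all genes tested), which was tested on simulated data. Repeated 31-base words were counted over the chromosomes of GRCm38.p6. Python 3.11.15 with pandas 2.3.3 was used.

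The members and gene lists were chosen with earlier results of these data known. Named were the members with the largest passing differences (up to 10 per mark and direction), ERY-only and iMK-only members (up to 8), testis members, members outside chromosomes 13 and 3, Hist1h1c and Hist1h2bc, the 4 highest and 4 lowest in promoter coverage, the widest peaks, and the leading genes of other lists. Other genes that were named, such as Hist1h1b, Hist1h4b and Hist1h4j, were chosen after their values were seen. Alternatives changed windows, flanks, overlap, normalization, filter, trend, peak number, cluster gap and each library in turn.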

Additional observations from a re-analysis of the deposited data

Results flagged for a closer look

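Hist1h1d and Hist1h1e were the 2 members whose promoter coverage was higher in both libraries of one cell type for H3K27ac and in both libraries of the other for H3K4me3. Of all protein-coding genes, 1.23% had marks apart in opposite directions. The difference between the marks was not tested.

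For Hist1h1d, H3K4me3 covered 0% and 0% of the promoter window in ERY replicates 1 and 2 and 3.10% and 16.9% in iMK replicates 1 and 2. H3K27ac covered 100% and 100% in ERY and 0% and 40.0% in iMK. Around the RefSeq start the H3K4me3 coverage was 51.6% and 41.6% in ERY and 91.6% and 71.6% in iMK.

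For Hist1h1e, a linker histone gene of the 29-member cluster, H3K4me3 covered 52.1% and 0% of the window in ERY and 72.1% and 100% in iMK. H3K27ac covered 100% and 100% in ERY and 82.1% and 92.1% in iMK. Groups of 2 libraries are too small for a test of single outlying libraries.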

How the results depend on the processing

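Of the 116 values recomputed under another setting, 91 stayed within 1.5 times the reported count or within 1 SD of the reported coverage. The 91 include cluster coverage with 1 list left out. Each of 2 lists always lies within 1 SD of their mean, so those values say nothing about stability. The 61 members higher in ERY for H3K27ac became 40 with a flank of 2 kb and 20 after quantile normalization, and 10 to 32 when a list was left out. With 1 list left out, its group's lone list is assumed to vary like the other group. Without the filter 42 members passed, and with a flank of 25 kb 63. Of the 61, 3 passed under all 10 settings and 46 kept their direction in all of them. A flank of 2 kb called 1 member higher in iMK (Hist2h4), as did quantile normalization (1, Hist2h2bb), and leaving out a list gave 0 to 1. For H3K4me3, leaving out a list gave 0 to 2 members higher in iMK, the testis pair without iMK replicate 1, at a difference of 0.981 points. Leaving out a list gave 0 members higher in ERY each time.

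ERY-only H3K27ac promoters numbered 1 with a window of 2.5 kb, and 2 to 5 when a list was left out (5 without iMK replicate 2). For H3K4me3, ERY-only promoters numbered 3 with equal numbers of peaks per list and 0 to 12 when a list was left out (12 without iMK replicate 2). iMK-only promoters numbered 0 with windows of 500 bp or 2.5 kb, an overlap of at least 500 bp, equal peak numbers, or RefSeq starts (a setting chosen after seeing the data), and 1 to 4 when a list was left out. Shared H3K4me3 promoters numbered 23 with equal peak numbers. Joining members under 30 kb apart into clusters gave H3K27ac coverage of 70.9% in ERY and 34.0% in iMK. The cause of these shifts was not tested. No paired analysis was possible because the labels number no replicates. Lists without read counts do not show which promoters were missed for lack of depth.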
